A study of Mus musculus with 15 samples.

Results

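The genes described here are 7 subunits of the GABA-A receptor, chosen by name: the alpha subunits Gabra2, Gabra3, Gabra4 and Gabra5, the beta subunits Gabrb1 and Gabrb2, and the delta subunit Gabrd. Every array probe whose accession resolved to 1 of these symbols was taken, which gave 11 of the 41174 probes on the array. All 7 genes were tested, among 22864 tested genes, and all 11 probes were well above background on all 15 arrays. Gabra2, Gabra4, Gabrb1 and Gabrd had 1 probe each, Gabra3 and Gabra5 had 2 and Gabrb2 had 3. Members are transcripts measured on the same arrays and are not replicates of each other.

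Transcript levels were measured with single-colour Agilent arrays in total RNA of the whole hippocampus, both hemispheres, of male C57BL/6 mice aged about 2.5 months. The study asked how loss of the glucocorticoid receptor (GR, encoded by Nr3c1), of the mineralocorticoid receptor (MR, encoded by Nr3c2) or of both alters hippocampal transcripts. The 4 dflox control arrays came from mice with floxed alleles of both receptor genes and no Cre. GREmx1-cre (4 arrays) carried floxed GR alleles with Emx1-Cre, MREmx1-cre (4 arrays) carried floxed MR alleles with Emx1-Cre, and GRMREmx1-cre (3 arrays) carried both floxed alleles with Emx1-Cre. The only control group is thus floxed at both loci, and Emx1-Cre is present in every knockout group and absent from the controls. Emx1-Cre is known to act from embryonic life in the excitatory neurons and much of the astroglia of the dorsal telencephalon and to spare most GABAergic interneurons, so the deletion dates from development.

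GABA-A receptors are chloride channels assembled from several subunits, and they carry most fast inhibition in the brain. A typical receptor joins alpha and beta subunits, between which GABA binds, to a gamma or a delta subunit. In the hippocampus the alpha5 subunit is abundant on pyramidal cell dendrites, much of it outside synapses where it carries tonic inhibition, and alpha4 with delta forms extrasynaptic, neurosteroid-sensitive receptors of dentate granule cells. The alpha2 subunit is known from perisomatic synapses and the axon initial segment, and alpha3 is scarce in the hippocampus relative to other forebrain regions.

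Array 75th percentiles of intensity spanned 821.2 to 1027.3, no spot was saturated, and arrays of a group correlated with r between 0.981 and 0.992 over tested genes. Levels below are log2 intensities relative to the 75th percentile of the same array, which is 0 on this scale, and are compared only within a probe. In the brightest Nr3c1 probe the dflox levels were 1.49 to 1.79, the GREmx1-cre levels -0.66 to -0.53 and the GRMREmx1-cre levels -0.08 to 0.09. The MREmx1-cre levels of that Nr3c1 probe were 2.08 to 2.28, above every dflox array. In the brightest Nr3c2 probe the dflox levels were -3.65 to -3.36, the MREmx1-cre levels -3.76 to -3.46 and the GRMREmx1-cre levels -4.01 to -3.71. In that probe, though not in the other Nr3c2 probes, every GREmx1-cre array (-3.15 to -3.04) lay above every dflox array. The MREmx1-cre and dflox arrays overlapped in that probe, whose place relative to the deleted exons is not given, so it does not check the label MREmx1-cre. In a second Nr3c2 probe, A_51_P377914, all MREmx1-cre arrays (-4.90 to -4.09) lay below all dflox arrays (-4.02 to -3.38), and GRMREmx1-cre replicate 1, at -3.21, lay above every dflox array. In the third probe, A_52_P264543, MREmx1-cre (-5.62 to -5.38) and dflox (-5.52 to -4.75) overlapped. The calls of members in GRMREmx1-cre against dflox are therefore also given without replicate 1. MREmx1-cre and GRMREmx1-cre are called the groups without MR below, as labelled. Each genotype lay alone on 1 of 4 slides, and in all comparisons the effects of slide and genotype cannot be told apart. Nothing in the labels ties an array to a separate animal beyond its replicate number, so p-values measure the spread between these arrays.

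The subunit genes lie in clusters in the RefSeq annotation of mouse assembly GRCm38.p6. Gabra2, Gabra4 and Gabrb1 lie near each other on chromosome 5, beside Gabrg1. Gabra5 lies on chromosome 7 beside Gabrg3, Gabrb2 on chromosome 11 beside Gabra6, Gabra3 on the X chromosome beside Gabrq, and Gabrd on chromosome 4. Promoter windows, from 250 bases before to 50 bases after an annotated start, were on hand for 6 of the 7 genes, in 10 windows, and were not used here for Gabrd. The windows of the 3 genes called against dflox are shown because GR and MR bind DNA as transcription factors. They are RefSeq sequences of GRCm38.p6, read 5′ to 3′ on the strand of the gene, and capitals mark the hexamer TGTTCT, the core of corticosteroid response elements. Gabra5 lies at chr7:57510010-57510309 on the minus strand, Gabra3 (the second of its windows) at chrX:72656870-72657169 on the minus strand, and Gabrb2 (the first of its windows) at chr11:42420190-42420489 on the plus strand.
Gabra5: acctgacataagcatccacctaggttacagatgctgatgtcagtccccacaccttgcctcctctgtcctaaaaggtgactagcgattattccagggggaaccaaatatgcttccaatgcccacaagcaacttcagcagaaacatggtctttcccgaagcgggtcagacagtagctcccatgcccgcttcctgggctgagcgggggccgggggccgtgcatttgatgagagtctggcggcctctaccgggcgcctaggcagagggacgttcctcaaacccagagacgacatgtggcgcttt
Gabra3: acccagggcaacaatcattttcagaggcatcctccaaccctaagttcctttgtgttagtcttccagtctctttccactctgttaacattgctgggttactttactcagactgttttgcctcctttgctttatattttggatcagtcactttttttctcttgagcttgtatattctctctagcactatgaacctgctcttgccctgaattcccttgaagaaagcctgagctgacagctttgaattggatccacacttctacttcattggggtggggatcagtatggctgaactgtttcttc
Gabrb2: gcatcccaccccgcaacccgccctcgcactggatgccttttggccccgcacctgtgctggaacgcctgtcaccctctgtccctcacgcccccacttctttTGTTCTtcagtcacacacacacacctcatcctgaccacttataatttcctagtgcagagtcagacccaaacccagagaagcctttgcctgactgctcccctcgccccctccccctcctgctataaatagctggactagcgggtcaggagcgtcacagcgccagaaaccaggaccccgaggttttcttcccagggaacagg

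The hexamer TGTTCT, searched on both strands, was found in 2 of the 10 windows of the members. Only Gabrb2 windows held it, and the match in capitals above begins at position -150 from the annotated start. Among all 32851 promoter windows of the same length, 19.0% held the hexamer. The full palindromic element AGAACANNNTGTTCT, which contains the hexamer, was in 0 of the 10 windows and in 0.00913% of all windows. Gabra5 and Gabra3 windows without these letters say nothing of receptor binding elsewhere. The Gabra5 window held 13 CpG dinucleotides and the Gabrb2 window 11, whereas the Gabra3 window held 0.

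Against dflox, members passed the test in the 2 groups without MR, and none passed it in GREmx1-cre. Gabra5 fell to 66.4% of its dflox level in MREmx1-cre and to 66.1% in GRMREmx1-cre. Gabra3 rose 1.31-fold and 1.4-fold in the same groups, and Gabrb2 rose 1.15-fold in GRMREmx1-cre. In GREmx1-cre, limma called 0 of the 7 members, where 3.15% of all tested genes were called, and 1 member had an unadjusted p below 0.05. In MREmx1-cre it called 2 of 7 against 6.81% of all genes, and in GRMREmx1-cre 3 of 7 against 16.3%. The median log2 fold change of the 7 members was 0.0186, 0.14 and 0.0645 in GREmx1-cre, MREmx1-cre and GRMREmx1-cre, beside 0.021, 0.0358 and 0.0326 over all tested genes. The comparisons with dflox share the same 4 control arrays.

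**Figure D1:**
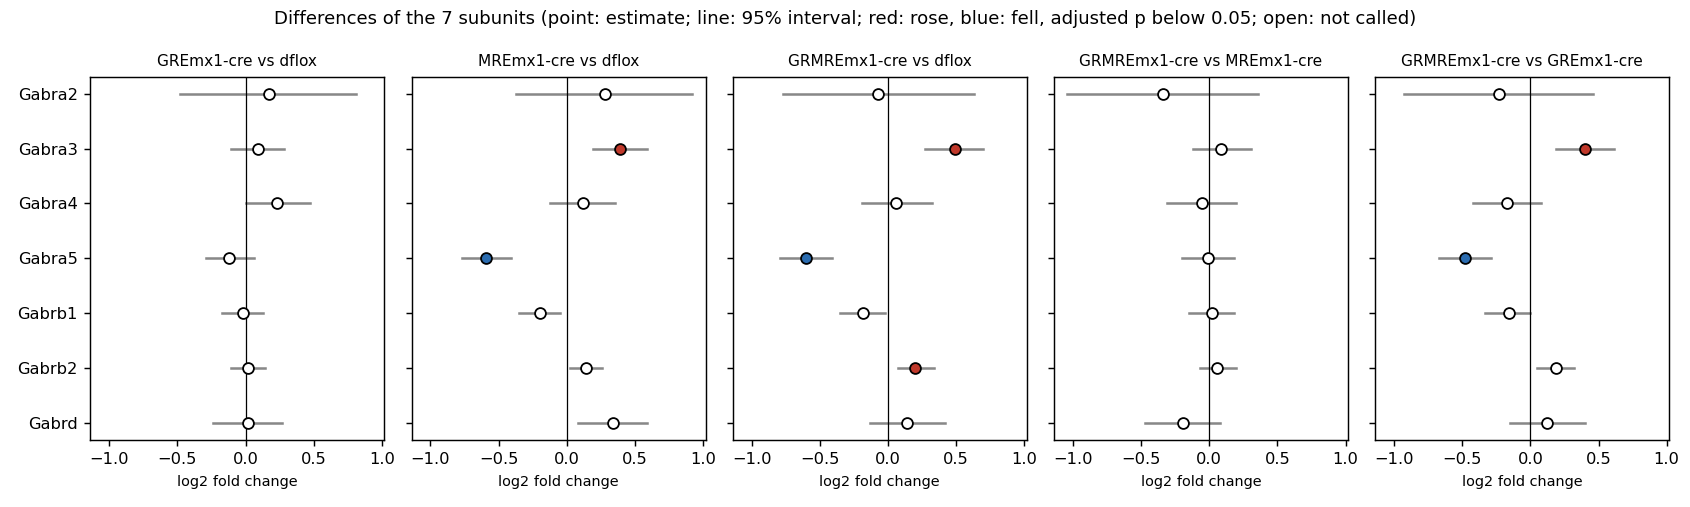
Log2 fold change of each subunit (x axis) in 5 comparisons (panels), with the 95% interval of the limma fit; red points rose and blue points fell at an adjusted p below 0.05, and open points were not called. Gabra5 lies at -0.59 and -0.60 and Gabra3 at 0.39 and 0.49 in the MREmx1-cre and GRMREmx1-cre panels against dflox, and no subunit is called between GRMREmx1-cre and MREmx1-cre.

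Gabra5 encodes the alpha5 subunit, the alpha subunit most typical of hippocampal pyramidal cells. In the 4 dflox arrays its brighter probe read 1.95, 2.08, 1.86 and 1.96, and in GREmx1-cre 1.84, 1.94, 1.81 and 1.80. It read 1.55, 1.44, 1.13 and 1.37 in MREmx1-cre and 1.28, 1.43 and 1.38 in GRMREmx1-cre. All 7 arrays of the groups without MR lay below all 8 other arrays, while the GREmx1-cre and dflox arrays overlapped.

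The mean Gabra5 level was 1.96 ± 0.0918 (SD, n = 4) in dflox and 1.37 ± 0.178 (SD, n = 4) in MREmx1-cre, a log2 difference of -0.59 ± 0.0816 (SE, limma adjusted p = 0.00119). In GRMREmx1-cre the mean was 1.36 ± 0.0808 (SD, n = 3), a log2 difference of -0.60 ± 0.0881 from dflox (limma adjusted p = 0.000788). GREmx1-cre, at 1.85 ± 0.0655 (SD, n = 4), differed from dflox by -0.12 on the log2 scale, with a 95% interval from -0.29 to 0.06 (limma adjusted p = 0.483). The groups thus stood in the order GRMREmx1-cre, MREmx1-cre, GREmx1-cre, dflox, and the neighbours that differed beyond their spread were MREmx1-cre and GREmx1-cre.

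Between knockouts, Gabra5 was lower in MREmx1-cre than in GREmx1-cre by -0.48 ± 0.0816 on the log2 scale (limma adjusted p = 0.0032), the 1 member called of 7 in a comparison that called 9.33% of all genes. GRMREmx1-cre lay below GREmx1-cre by a log2 difference of -0.48 ± 0.0881 (limma adjusted p = 0.00322). The difference of GRMREmx1-cre from MREmx1-cre was -0.01, with a 95% interval from -0.20 to 0.18 (limma adjusted p = 0.983). Under normexp the MREmx1-cre differences of Gabra5 kept their sign and lost the call, at an adjusted p of 0.0587 against dflox and 0.16 against GREmx1-cre. A further change of Gabra5 with GR loss on top of MR loss was therefore not detected, and the interval bounds its size. The interaction, coded as the effect of MR loss in mice without GR minus its effect in mice with GR, was 0.11 ± 0.12 (limma adjusted p = 0.70).

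The second Gabra5 probe gave the same direction in the groups without MR, with more scatter. It read 1.35, 1.53, 0.82 and 1.28 in dflox and 1.62, 1.48, 1.09 and 1.4 in GREmx1-cre. In MREmx1-cre it read 0.73, 0.76, 0.45 and 0.61, and in GRMREmx1-cre 0.68, 0.57 and 0.28. Again all 7 arrays without MR lay below all 8 others. With every probe fitted on its own, the second probe differed from dflox by -0.61 ± 0.152 in MREmx1-cre (limma adjusted p = 0.0342) and by -0.74 ± 0.164 in GRMREmx1-cre (limma adjusted p = 0.00976). Those fits called 6.03% and 14.4% of all 30873 tested probes. GREmx1-cre differed from dflox by 0.15 in the second probe (limma adjusted p = 0.634), opposite in sign to the brighter probe. Against GREmx1-cre the second probe was lower by a log2 difference of -0.76 ± 0.152 in MREmx1-cre (limma adjusted p = 0.0085), where 8.88% of probes were called, and of -0.89 ± 0.164 in GRMREmx1-cre (limma adjusted p = 0.00366), where 15.2% were called.

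**Figure D2:**
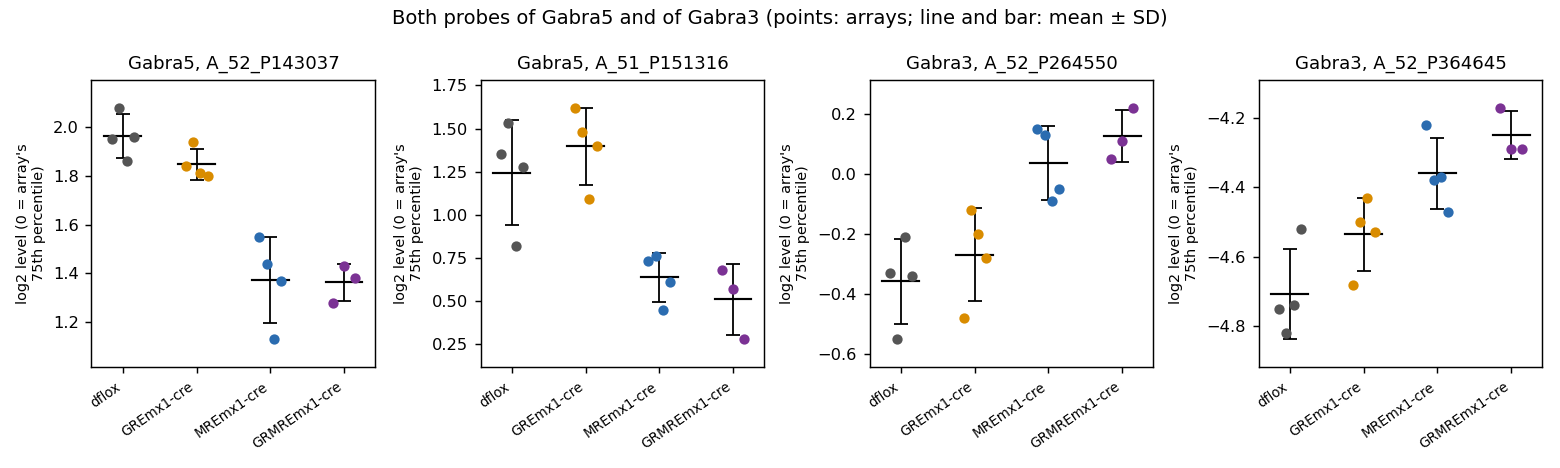
Log2 level relative to each array's 75th percentile (y axis) for both probes of Gabra5 and both probes of Gabra3, by group, with 1 point per array and the mean ± SD. In both Gabra5 probes the MREmx1-cre and GRMREmx1-cre arrays lie below every dflox and GREmx1-cre array, and in both Gabra3 probes they lie above every dflox array. In the dimmer Gabra3 probe the MREmx1-cre and GREmx1-cre arrays overlap.

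In whole tissue, fewer cells of a type and less RNA per cell cannot be told apart, and markers of some hippocampal cells moved in the same groups. Against dflox, 3.15%, 6.81% and 16.3% of all genes were called in GREmx1-cre, MREmx1-cre and GRMREmx1-cre. Of the 6 CA2 pyramidal cell markers, 4 fell and 0 rose in MREmx1-cre, and the same counts held in GRMREmx1-cre. In GREmx1-cre 0 of the CA2 markers were called. Their summed linear level, in multiples of the 75th percentile, was 46.4 to 49.0 across dflox arrays, 46.4 to 50.3 across GREmx1-cre, 32.3 to 37.2 across MREmx1-cre and 31.7 to 37.1 across GRMREmx1-cre. Of 5 tested CA3 markers, 1 rose in GREmx1-cre, 2 fell in MREmx1-cre and 3 fell in GRMREmx1-cre. CA3 summed levels were 23.1 to 29.3 in dflox, 25.8 to 29.5 in GREmx1-cre, 20.5 to 21.2 in MREmx1-cre and 19.0 to 22.3 in GRMREmx1-cre. Their part in the Gabra5 result was not tested. All 6 CA2 markers were tested, and of the CA3 list Bok was not.

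Counts for other cell lists against dflox follow, beside 3.15%, 6.81% and 16.3% of all tested genes called in GREmx1-cre, MREmx1-cre and GRMREmx1-cre. In GREmx1-cre, 0 of the CA1, dentate and microglial markers were called. Of 7 CA1 markers, 1 rose and 1 fell in MREmx1-cre and 1 rose and 2 fell in GRMREmx1-cre. Summed levels were 95.7 to 122 in dflox, 104 to 118 in GREmx1-cre, 105 to 129 in MREmx1-cre and 108 to 112 in GRMREmx1-cre. The markers were also averaged as log2 levels relative to each gene's mean over all arrays. That mean was -0.0922 to 0.238 in dflox, 0.107 to 0.245 in GREmx1-cre, -0.212 to 0.0675 in MREmx1-cre and -0.347 to -0.289 in GRMREmx1-cre. By this mean every GRMREmx1-cre array lay below every other array, and MREmx1-cre overlapped with dflox. Of 13 tested dentate granule cell markers, 3 rose and 4 fell in MREmx1-cre and 2 rose and 6 fell in GRMREmx1-cre. Summed levels were 38.2 to 50.6 in dflox, 43.5 to 54.0 in GREmx1-cre, 39.0 to 44.5 in MREmx1-cre and 37.0 to 43.3 in GRMREmx1-cre. Their mean log2 level relative to all arrays was -0.0207 to 0.392, 0.152 to 0.487, -0.261 to -0.128 and -0.529 to -0.273 in that order. By this mean all MREmx1-cre and GRMREmx1-cre arrays lay below all dflox and GREmx1-cre arrays. Of 14 tested GABAergic interneuron markers, limma called 0 against dflox in each knockout group, with 2, 3 and 2 at an unadjusted p below 0.05 in GREmx1-cre, MREmx1-cre and GRMREmx1-cre. Among 7 microglial markers, 2 rose in MREmx1-cre and 4 in GRMREmx1-cre, with summed levels of 29.7 to 33.2 in dflox, 31.0 to 33.8 in GREmx1-cre, 35.9 to 37.3 in MREmx1-cre and 36.6 to 43.7 in GRMREmx1-cre. Among 7 astrocyte markers, 1 rose in GREmx1-cre, 1 in MREmx1-cre and 3 in GRMREmx1-cre. Their summed levels were 97.2 to 102 in dflox, 100 to 108 in GREmx1-cre, 106 to 113 in MREmx1-cre and 107 to 120 in GRMREmx1-cre. The part of these cells in the members' values was not tested.

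Gabra3 encodes the alpha3 subunit, which elsewhere in the brain is known from reticular thalamic and monoaminergic neurons. Its brighter probe read -0.33, -0.55, -0.21 and -0.34 in dflox and -0.48, -0.12, -0.20 and -0.28 in GREmx1-cre. The MREmx1-cre arrays read 0.15, 0.13, -0.09 and -0.05 and the GRMREmx1-cre arrays 0.05, 0.11 and 0.22. Every array without MR lay above every array with MR, although the gap between the highest GREmx1-cre array and the lowest MREmx1-cre array was small.

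Gabra3 stood at -0.36 ± 0.139 (SD, n = 4) in dflox and 0.03 ± 0.123 (SD, n = 4) in MREmx1-cre, a log2 difference of 0.39 ± 0.0915 (SE, limma adjusted p = 0.0231). This call was lost when replicate 1 or 2 of dflox or of MREmx1-cre was left out, with a log2 difference between 0.33 and 0.40 and an adjusted p of up to 0.0637. It was also lost with median scaling, normexp or only the groups compared, at an adjusted p of 0.0695, 0.178 and 0.0674. The difference of GRMREmx1-cre, at 0.13 ± 0.0845 (SD, n = 3), from dflox was 0.49 ± 0.0988 (limma adjusted p = 0.00532), and it stayed called whichever array was left out, with an adjusted p of at most 0.0276. GREmx1-cre differed from dflox by 0.09, with a 95% interval from -0.11 to 0.28 (limma adjusted p = 0.659).

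In the order of the groups, dflox, GREmx1-cre, MREmx1-cre and GRMREmx1-cre, no neighbours differed past the threshold for Gabra3. The step from GREmx1-cre to MREmx1-cre was 0.31 ± 0.0915 (limma adjusted p = 0.055). GRMREmx1-cre exceeded GREmx1-cre by 0.40 ± 0.0988 (limma adjusted p = 0.0163), in a comparison that called 2 of the 7 members, Gabra3 and Gabra5, and 16.1% of all genes. That Gabra3 call was lost without GRMREmx1-cre replicate 2 or 3 and with median scaling, at an adjusted p of 0.0502, 0.0724 and 0.0522. Under normexp it was kept, at 0.30 (limma adjusted p = 0.0254), which lay below the median of all genes, 0.415. Normexp called 61.6% of all genes in that comparison. The dimmer Gabra3 probe, near -4.70 in dflox, was higher by 0.34 ± 0.076 in MREmx1-cre (limma adjusted p = 0.0193) and by 0.45 ± 0.0821 in GRMREmx1-cre (limma adjusted p = 0.00293). In that probe MREmx1-cre (-4.47 to -4.22) and GREmx1-cre (-4.68 to -4.43) overlapped. MREmx1-cre was higher by 0.17 ± 0.076 (limma adjusted p = 0.181). GREmx1-cre differed from dflox by 0.17, with a 95% interval from 0.01 to 0.33 (limma adjusted p = 0.248). GRMREmx1-cre exceeded GREmx1-cre by 0.28 ± 0.0821 (limma adjusted p = 0.0345).

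Markers of tissue next to the hippocampus are given beside Gabra3, and no list was drawn up for the reticular thalamus. Against dflox, 3.15%, 6.81% and 16.3% of all genes were called in GREmx1-cre, MREmx1-cre and GRMREmx1-cre. Of the 10 tested thalamus and habenula markers, 0 were called in GREmx1-cre, 3 rose in MREmx1-cre and 4 in GRMREmx1-cre. Their summed level was 5.63 to 6.90 across dflox arrays, 5.38 to 8.79 across GREmx1-cre, 6.61 to 7.23 across MREmx1-cre and 6.96 to 7.98 across GRMREmx1-cre. GREmx1-cre replicate 1 had the sum of 8.79 and the lowest Gabra3 level of its group. GREmx1-cre replicates 2, 3 and 4 had sums of 5.55, 5.42 and 5.38, below every array without MR. Of 7 striatal markers, 0 were called in GREmx1-cre, 1 rose in MREmx1-cre and 2 in GRMREmx1-cre. Their part in the Gabra3 result was not tested.

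Gabra2 and Gabra4 were not called in any of the 7 tests. Gabra2, the alpha subunit of perisomatic and axon initial segment synapses, had the widest spread of the members. It read 0.70, 1.72, 1.60 and 1.5 in dflox and 2.23, 0.82, 1.36 and 1.79 in GREmx1-cre. In MREmx1-cre it read 2.23, 1.55, 1.47 and 1.37 and in GRMREmx1-cre 1.14, 1.45 and 1.35. The groups overlapped throughout, and the 95% intervals of the log2 difference from dflox were -0.48 to 0.81 for GREmx1-cre, -0.37 to 0.92 for MREmx1-cre and -0.77 to 0.63 for GRMREmx1-cre. A difference of the size seen for Gabra5 lay within each of these intervals in at least 1 direction.

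Gabra4, the alpha subunit that pairs with delta in dentate granule cells, read 2.88, 3.08, 2.71 and 2.76 in dflox and 3.29, 3.14, 3.0 and 2.95 in GREmx1-cre. The MREmx1-cre arrays read 2.81, 3.05, 3.07 and 2.97 and the GRMREmx1-cre arrays 3.15, 2.82 and 2.80. The GREmx1-cre arrays were the highest as a group and overlapped with each of the others. The log2 difference of GREmx1-cre from dflox was 0.23 ± 0.108 (limma adjusted p = 0.259), and those of MREmx1-cre and GRMREmx1-cre were 0.12 and 0.06.

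**Figure D3:**
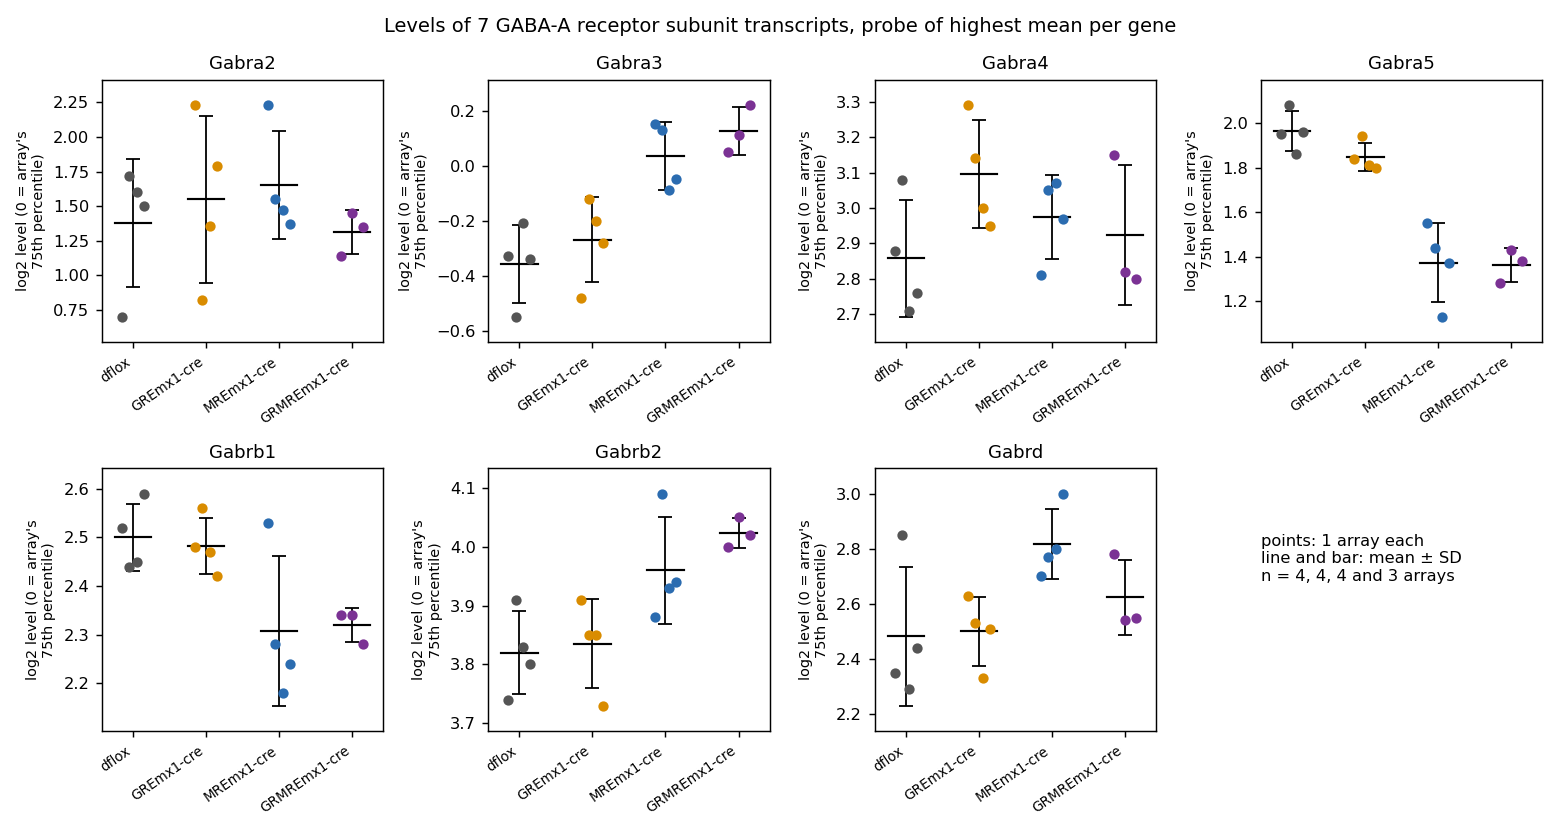
Log2 level relative to each array's 75th percentile (y axis) for the brightest probe of each of the 7 subunits, by group, with 1 point per array and the mean ± SD (n = 4, 4, 4 and 3). Gabra5 shows 2 separate levels, 1.80 to 2.08 with MR present and 1.13 to 1.55 without it, while Gabra2 spreads from 0.70 to 2.23 with no separation of the groups.

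Among the beta subunits, which form the GABA site together with alpha subunits, Gabrb2 was called in GRMREmx1-cre. Its brightest probe read 3.74, 3.91, 3.83 and 3.80 in dflox and 3.91, 3.85, 3.85 and 3.73 in GREmx1-cre. It read 3.88, 4.09, 3.93 and 3.94 in MREmx1-cre and 4.0, 4.05 and 4.02 in GRMREmx1-cre. The 3 GRMREmx1-cre arrays lay above all dflox and GREmx1-cre arrays and within the range of MREmx1-cre.

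Gabrb2 in GRMREmx1-cre was 0.20 ± 0.0618 above dflox on the log2 scale (limma adjusted p = 0.0422), and in MREmx1-cre the difference was 0.14 ± 0.0573 (limma adjusted p = 0.171). With the normexp background correction the sign turned, to -0.11 (limma adjusted p = 0.45), and the call was lost in 10 of the 15 fits that left out 1 array, with a log2 difference between 0.18 and 0.21 and an adjusted p of up to 0.137. It was also lost with median scaling (0.12, limma adjusted p = 0.324), the mean of the gene's probes (0.11, limma adjusted p = 0.254), no filter on dim probes (limma adjusted p = 0.071) and only the groups compared (limma adjusted p = 0.0639). The arrays left out were dflox replicates 1, 3 and 4, GREmx1-cre replicates 2 and 3, MREmx1-cre replicates 3 and 4, and all 3 GRMREmx1-cre replicates. The other Gabrb2 probes did not pass the threshold. Their log2 differences were -0.02 ± 0.0813 (limma adjusted p = 0.915) for A_51_P227679 and 0.16 ± 0.0711 (limma adjusted p = 0.161) for A_52_P460687, so the 3 probes disagreed.

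Gabrb1, a beta subunit neighbouring Gabra4 on chromosome 5, read 2.52, 2.44, 2.45 and 2.59 in dflox and 2.48, 2.56, 2.47 and 2.42 in GREmx1-cre. Without MR it read 2.53, 2.28, 2.18 and 2.24 in MREmx1-cre and 2.34, 2.34 and 2.28 in GRMREmx1-cre. All arrays without MR except MREmx1-cre replicate 1 lay below all arrays with MR. The log2 difference from dflox was -0.20 ± 0.0699 in MREmx1-cre (limma adjusted p = 0.115) and -0.18 ± 0.0755 in GRMREmx1-cre (limma adjusted p = 0.124). With MREmx1-cre replicate 1 left out, both were called, at -0.27 (limma adjusted p = 0.0109) and -0.18 (limma adjusted p = 0.0333). With all arrays kept, the GRMREmx1-cre difference was also called under median scaling (-0.26, limma adjusted p = 0.0478) and normexp (-0.45, limma adjusted p = 0.0151). Normexp called 61.8% of all genes in that comparison, and their median log2 difference was 0.418. Under median scaling 14.2% were called, at a median of -0.0499.

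Gabrd encodes delta, the subunit that replaces gamma in extrasynaptic receptors and confers high sensitivity to neurosteroids. It read 2.35, 2.85, 2.29 and 2.44 in dflox and 2.63, 2.53, 2.33 and 2.51 in GREmx1-cre. MREmx1-cre arrays read 2.70, 2.77, 2.80 and 3.0, and GRMREmx1-cre arrays 2.78, 2.54 and 2.55. Only dflox replicate 2 among the control arrays reached the MREmx1-cre range. The difference of MREmx1-cre from dflox was 0.34 ± 0.118 (limma adjusted p = 0.11), and it was called without dflox replicate 2, at 0.46 (limma adjusted p = 0.0161). GRMREmx1-cre differed from dflox by 0.14, with a 95% interval from -0.13 to 0.42 (limma adjusted p = 0.506).

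Between GRMREmx1-cre and MREmx1-cre, limma called 0 of the 7 members, where 2.98% of all genes were called, and 0 had an unadjusted p below 0.05. For the interaction it called 0 of 7, where 1.29% of all genes were called, and again 0 had an unadjusted p below 0.05. The median log2 difference of the members between the double and the MR knockout was -0.00696, beside 0.00133 over all genes. Against GREmx1-cre the members' median was -0.163 in GRMREmx1-cre and 0.109 in MREmx1-cre, beside 0.0241 and 0.0148.

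**Figure D4:**
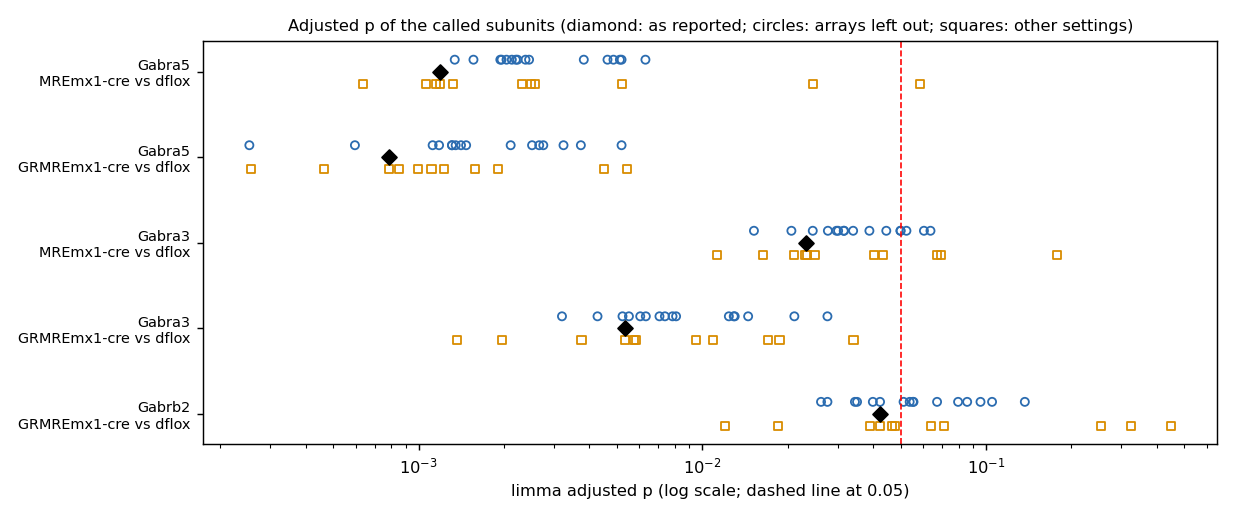
Limma adjusted p (log axis) of the 5 calls of members against dflox, with a diamond for the reported fit, circles for fits that left out 1 or more arrays, squares for other settings, and a dashed line at 0.05. Gabra5 in GRMREmx1-cre stays left of the line throughout, as does Gabra3 in GRMREmx1-cre, while Gabrb2 crosses it in many fits.

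2 arrays stood apart in tissue markers. GREmx1-cre replicate 1 had the highest thalamus and habenula sum, 8.79, and MREmx1-cre replicate 2 the lowest choroid plexus sum, 1.77, where the sums of dflox arrays ran from 27.6 to 77.4. With both arrays left out, an alternative chosen after seeing the data, Gabra5 differed from dflox by -0.61 in MREmx1-cre (limma adjusted p = 0.0063) and by -0.60 in GRMREmx1-cre (limma adjusted p = 0.00211). Gabra3 then differed by 0.36 (limma adjusted p = 0.0445) and 0.49 (limma adjusted p = 0.00427), and Gabrb2 in GRMREmx1-cre by 0.20 (limma adjusted p = 0.0262). Without GRMREmx1-cre replicate 1, the array with the high Nr3c2 reading, the GRMREmx1-cre differences from dflox were -0.55 for Gabra5 (limma adjusted p = 0.00519), 0.52 for Gabra3 (limma adjusted p = 0.013) and 0.21 for Gabrb2 (limma adjusted p = 0.0797).

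Some other GABA-A subunits outside the 7 were looked at in the same fit. Gabra6, Gabrq and Gabrr2 were on the array and did not reach the filter on dim probes, and no probe matched Gabrr3. Gabrg3, Gabre and Gabrp passed the threshold in no comparison. Gabrg1, a gamma subunit neighbouring Gabra2, rose by 0.42 ± 0.117 in GRMREmx1-cre (limma adjusted p = 0.0276).

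Gabrr1 encodes rho1, best known from retinal GABA receptors. In GRMREmx1-cre it was higher by 0.53 ± 0.0815 than in dflox (limma adjusted p = 0.000967) and by 0.60 ± 0.0815 than in MREmx1-cre (limma adjusted p = 0.00213). It exceeded GREmx1-cre by 0.34 (limma adjusted p = 0.0149), and MREmx1-cre lay below GREmx1-cre by a log2 difference of -0.27 (limma adjusted p = 0.043).

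The GABA synapse list holds 32 genes for GABA synthesis, transport and breakdown, GABA-B receptors, receptor scaffolds and trafficking, chloride transport and neurosteroid synthesis, and all 32 were tested. Against dflox, limma called 0 of 32 in each knockout group. Of all genes, 3.15%, 6.81% and 16.3% were called in GREmx1-cre, MREmx1-cre and GRMREmx1-cre. In the same order, 7, 2 and 6 of the 32 had an unadjusted p below 0.05. Gad1, which makes GABA, differed by -0.26, -0.18 and -0.23 in that order, Gphn, the gephyrin scaffold of inhibitory synapses, by -0.01, -0.03 and -0.06, and Slc12a5, the neuronal chloride extruder, by -0.05, -0.03 and 0.01. The SE of the Gad1 differences was 0.0856, 0.0856 and 0.0924 (limma adjusted p = 0.13, 0.237 and 0.109). Gad1, Gphn and Slc12a5 were named after their values were seen.

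Between knockouts, 5 of the 32 were called in GRMREmx1-cre against GREmx1-cre, 2 up and 3 down, a share near the 16.1% of all genes called there. Likewise 2 of 32 were called in MREmx1-cre against GREmx1-cre, where 9.33% of all genes were, and 1 of 32 in GRMREmx1-cre against MREmx1-cre, where 2.98% were. In GRMREmx1-cre against GREmx1-cre, Trak2, a trafficking adaptor, rose by 0.32 (limma adjusted p = 0.00715). Srd5a1, a neurosteroid enzyme outside the naming rule, rose there by 0.34 (limma adjusted p = 0.0466). In the same comparison Shisa7, an auxiliary protein of GABA-A receptors, fell by 0.43 (limma adjusted p = 0.0177). Plcl1 fell there by 0.24 (limma adjusted p = 0.0389) and Gabarapl1 by 0.16 (limma adjusted p = 0.0386). Shisa7 was also lower in GRMREmx1-cre than in MREmx1-cre, by a log2 difference of -0.51 (limma adjusted p = 0.0253). In MREmx1-cre against GREmx1-cre, Gabbr2, a GABA-B receptor subunit, fell by 0.34 (limma adjusted p = 0.0139) and Trak2 rose by 0.27 (limma adjusted p = 0.017).

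Likeness to other genes was measured as Pearson's r of log2 levels over the 15 arrays, among 15870 tested genes with a symbol. The points share arrays, slides and group differences, so r is a description. Gabra5 was most like Hectd2 (r = 0.972), Gpr22 (0.957) and Plxna1 (0.956), and within groups these r were 0.739, 0.792 and 0.706. Gabra3 was most like Car10 (r = 0.972, and 0.934 within groups), Ldb2 (0.94) and Rxrg (0.937). Gabrb2 was most like Trrap (0.912), Dact2 (0.909) and Fbxw7 (0.902).

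Of the members that were not called, Gabra4 was most like Frrs1l (r = 0.916), Ctdspl2 (0.892) and Vps36 (0.888), and Gabrb1 most like Btg3 (0.921), Snx24 (0.92) and Thsd7b (0.91). Gabrd was most like Smad3 (0.866), Twist2 (0.834) and Tmco5 (0.833), and Gabra2 most like Mad1l1 (0.725), Zfp119a (0.709) and Cnbd2 (0.684). Between members, Gabra5 and Gabrb1 had r = 0.839 over all arrays and 0.635 within groups. Gabra5 and Gabra3 had r = -0.767 over all arrays and 0.247 within groups, so their opposite course lay between groups and not among arrays of a group.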

How the data were processed

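RNA of the hippocampus was hybridised to 15 single-colour arrays (Cy3) of 4 genotypes. The submitters' processing notes name Agilent Feature Extraction 12.0 as the scanner software. Its processed signal is, per the file headers, an intensity in arbitrary units that is already background-corrected, and flag columns hold other values (0 or 1) per spot: well above background, saturated, outlier. The authors' deposited value table held the same intensity at 45018 of 45018 spots of each array, with no scaling between arrays.

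Here, 1281 outlier spots were left out, spots of a probe were averaged, and log2 intensity minus the array's 75th percentile over non-control spots was used. Probes were named by accession through a RefSeq table (GRCm38.p6), which gave 28223 of 41174 probes 1 symbol, 0 several and 12951 none. The test took the 30873 probes that 3 or more arrays showed well above background, with the probe of highest mean for each of 22864 genes. A model with 1 mean per genotype was fitted to all arrays with limma 3.58.1 under R 4.3.3, which was tested on simulated data, and p-values were Benjamini-Hochberg adjusted at 0.05 over all genes. ± after a log2 difference is its SE. Figures were drawn with matplotlib 3.10.9 (Python 3.11.15).

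The members, lists and tests were chosen with earlier results of these data known. Named are the members, Nr3c1, Nr3c2, subunits of a further list, up to 4 called genes of the GABA synapse list per comparison and the 3 genes most like each member; exceptions are stated beside their values. Part of the further list is not reported here. Alternatives covered scaling, background correction, filter, probe choice, samples, weights, replicate block and leaving out arrays. The scanner files hold no mean signal, so normexp (offset 50) used the median signal and median background. Precision is limited by the number of arrays.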

Additional observations from a re-analysis of the deposited data

How the results depend on the processing

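Gabra5 kept its calls in every fit that left out 1 array, with log2 differences from dflox of -0.65 to -0.51 in MREmx1-cre and -0.63 to -0.55 in GRMREmx1-cre. The number of members called in those fits ran from 1 to 2 for MREmx1-cre against dflox, 2 to 4 for GRMREmx1-cre against dflox, 1 to 3 for GRMREmx1-cre against GREmx1-cre, 1 to 3 for MREmx1-cre against GREmx1-cre, and 0 to 0 for the other 3 comparisons. Without dflox replicate 1 or MREmx1-cre replicate 2 the MREmx1-cre count against dflox fell to 1, and without GRMREmx1-cre replicate 2 or 3 the count against GREmx1-cre fell to 1. For MREmx1-cre against GREmx1-cre it rose above 1 without dflox replicate 2, GREmx1-cre replicate 2 or MREmx1-cre replicate 1 or 3.

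Median scaling called 1 member in MREmx1-cre against dflox and 1 in GRMREmx1-cre against GREmx1-cre, in place of 2 each, and a fit of only the groups compared called 1 in MREmx1-cre against dflox. Keeping probes well above background on every array called 2 members in MREmx1-cre against GREmx1-cre, in place of 1. Normexp called 0 members in MREmx1-cre against dflox and 0 against GREmx1-cre, where Gabra5 stood at -0.58 (limma adjusted p = 0.0587) and -0.45 (limma adjusted p = 0.16), and Gabrb2 in GRMREmx1-cre turned to -0.11 (limma adjusted p = 0.45). With that correction the median log2 difference of all genes was 0.418 in GRMREmx1-cre against dflox. Normexp called 61.8% of genes there, against 0.0569% and 0.459% in GREmx1-cre and MREmx1-cre. Relative to that median Gabra3, at 0.42, no longer stood higher. The cause was not tested.

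The number of all genes called also moved. For GREmx1-cre against dflox it was 721, and 346 to 471 with median scaling, quantile normalization, no filter or only the groups compared. For MREmx1-cre against dflox it was 1557, and 1029 with median scaling and 695 with only the groups compared. For GRMREmx1-cre against MREmx1-cre it was 681, and 420 with only the groups compared and 1081 with array weights. For MREmx1-cre against GREmx1-cre it was 2134, and 1238 with only the groups compared. For the interaction it was 295, and 138 without a filter, 182 with median scaling and 767 with array weights. Normexp gave 13, 105, 14121, 14086, 13668 and 173 genes for GREmx1-cre, MREmx1-cre and GRMREmx1-cre against dflox, GRMREmx1-cre against GREmx1-cre and against MREmx1-cre, and MREmx1-cre against GREmx1-cre, and 1 for the interaction.

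Deviations of same-numbered arrays had a mean r of 0.0691 over 21 pairs, 6 of them above 0.1, and those of other-numbered arrays a mean of -0.0231 over 63 pairs, 1 above 0.1. Nothing in the labels says that a replicate number ties samples, so the arrays were not treated as paired. A component shared by number or slide position may remain. With the number as a replicate block, which is also the position on the slide, 2 members were called in MREmx1-cre and 3 in GRMREmx1-cre against dflox, and all-gene counts were 929, 1833 and 3833 in GREmx1-cre, MREmx1-cre and GRMREmx1-cre. The slide as a block was not run, since it could not be fitted with 1 genotype on each slide.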
